A study of Mus musculus with 4 samples.

Results

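Tetraspanins are small proteins that cross the membrane several times and gather integrins, proteases and signalling receptors into patches of the plasma membrane. Many of them also sit in late endosomes, lysosomes and the vesicles that cells release, and CD9, CD63 and CD81 are the usual marker proteins of exosomes. Islets, the endocrine clusters of the pancreas, hold tetraspanins of the cell surface and of the endosomal and granule compartments. TSPAN7 is an autoantigen in human type 1 diabetes. Here 10 tetraspanin genes, Cd9, Cd63, Cd81, Cd82, Cd151, Cd37, Tspan3, Tspan7, Tspan8 and Tspan31, were taken by name from the 54532 genes of the deposited table. The group was chosen by name but led by Cd9, selected on its FPKM values in this same table, which lay evenly lower in transgenic than in wild-type islets. Differences between the genotypes are therefore given for these genes as a description and support nothing further.

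Whole islets were taken from male mice, 10 to 12 weeks old and of the C57BL/6 strain, and their RNA was sequenced. Transgenic islets, from mice with a miR-29a/b-1 transgene meant to be active in pancreatic beta cells only, gave 2 libraries, and wild-type islets gave 2 libraries. The promoter that drives the transgene is not named in the labels, and neither is the number of mice behind each library. Whether replicate libraries stem from different mice is not stated either, so the p-values reflect library-to-library spread alone, which may be technical. Each library name carries a number, so the libraries are called transgenic 1 and 2 and wild type 1 and 2.

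Levels are FPKM, the reads of a gene divided by its length in kilobases and scaled to a total for the library, as the authors deposited them. Reads recovered from these values came to 23654135 and 21670854 in transgenic 1 and 2 and to 23730364 and 27080907 in wild type 1 and 2. The totals behind the FPKM were 1.09 and 0.970 times these reads in transgenic 1 and 2, and 1.01 and 0.957 times in wild type 1 and 2. Markers of beta cells, with all 10 of 10 listed genes at a level high enough to compare, took 19.9% to 32.8% of the reads in transgenic islets and 27.6% to 34.2% in wild-type islets. The 9 of them other than Ins2, an insulin gene, took 7.12% to 7.35% in transgenic and 7.51% to 7.62% in wild-type islets. Libraries of the same number lay together whatever their genotype, with 77.9% of the variance on a first principal component that separated the numbers. Differences between the genotypes are for this reason also given within each number. The number is not a term in the main genotype comparison, so its standard errors and p-values take in the difference between the numbers. Genes of at least 1 FPKM in at least 2 libraries, 12716 in all, were compared with limma, a linear model fitted across all of them, and a gene was called at a Benjamini-Hochberg adjusted p under 0.05.

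miR-29 microRNAs lower messenger RNAs that pair with their seed, bases 2 to 8 of the mature RNA. The mature forms of the transgene's microRNAs are shown because this seed sets which messages could be matched. Capitals mark the seed, which both share, and the sequences are from RefSeq on GRCm38.p6, where both lie on the minus strand (chr6:31062673-31062694 for miR-29a-3p and chr6:31063025-31063047 for miR-29b-3p).
miR-29a-3p: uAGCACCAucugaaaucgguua
miR-29b-3p: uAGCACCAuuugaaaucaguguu

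The match to this seed, TGGTGCT on the sense strand, was searched for in the longest annotated 3' UTR of each gene in GENCODE M21 on GRCm38. It occurred in 0 of the 10 genes, against 15.3% of 10839 genes compared between libraries that had such a UTR. It was also absent from the 3' UTRs of all 25 annotated coding transcripts of the 10 genes. The 3' UTR of Cd9 has 395 bases and that of Cd63 has 82, while that of Tspan7 has 6374, and the median of the 10 is 756.5 bases, against 1165 for the genes compared. A shorter match to bases 2 to 7 alone, GGTGCT, which every longer match contains, was in 2 of the 10 (Cd151 and Cd37), against 33.0% of the genes compared. A missing match says only that these letters are not in the annotated UTR.

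Among 21 other tetraspanin genes, listed for comparison, 12 were high enough to compare, and 6 of these 12 held the match, with 9 sites in all. Of those 6 genes, 4 (Tspan5, Tspan14, Tspan15 and Tspan17) belong to the TspanC8 subgroup, the tetraspanins that carry the protease ADAM10 to the cell surface. The sites of these 6 genes are shown because the miR-29 seed could pair there. Upk1b, below the level compared, held the match as well and is not shown. Each line gives the position on GRCm38 and the strand, then the message 5′ to 3′ with the match in capitals and 10 bases on each side.
Tspan5, chr3:138905327-138905353, plus strand: atagttacaaTGGTGCTttgtttacaa
Tspan5, chr3:138905856-138905882, plus strand: atttatacatTGGTGCTtgctccttct
Tspan14, chr14:40907893-40907919, minus strand: ttcttcttgcTGGTGCTgaagaccaag
Tspan14, chr14:40906937-40906963, minus strand: cacagacagcTGGTGCTgtgtggaatg
Tspan15, chr10:62187065-62187091, minus strand: aaacaaagctTGGTGCTtgccgccccc
Tspan15, chr10:62186777-62186803, minus strand: cagaaactctTGGTGCTcacagctgtt
Tspan17, chr13:54796346-54796372, plus strand: tttgtgacctTGGTGCTcattacccac
Tspan4, chr7:141493288-141493314, plus strand: acgatgatctTGGTGCTccaggcaggg
Tspan9, chr6:127962463-127962489, minus strand: tgcttcagggTGGTGCTggttcctgga

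The 10 genes differed widely in level. Cd63, a tetraspanin of late endosomes, lysosomes and secretory granules, stood first, at 86.6 and 129.7 FPKM in transgenic 1 and 2 and at 86.8 and 132.8 FPKM in wild type 1 and 2. No other gene of the 10 came near it, and it made up 36.6% and 43.5% of their summed FPKM in transgenic 1 and 2 and 36.7% and 45.0% in wild type 1 and 2. Tspan3, a broadly expressed tetraspanin, followed at 38.5 and 39.2 FPKM in transgenic islets and 33.8 and 39.4 FPKM in wild-type islets. Tspan7, the autoantigen gene, was at 32.0 and 29.8 FPKM in transgenic islets and at 31.0 and 27.5 FPKM in wild-type islets. The lowest library of Tspan3 lay above the highest of Tspan7, and the lowest of Tspan7 above the highest of Tspan31, so these first 3 places were separated in every library.

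The middle of the order was not resolved. Tspan31, which lies beside Cdk4, was at 20.0 and 21.7 FPKM in transgenic islets and at 21.1 and 17.6 FPKM in wild-type islets. Cd81, which encodes a surface protein of many tissues, was at 14.6 and 21.7 FPKM in transgenic islets and at 15.8 and 19.0 FPKM in wild-type islets. Tspan8, a tetraspanin of gut and pancreatic epithelium, was at 13.1 and 20.2 FPKM in transgenic islets and at 12.5 and 23.7 FPKM in wild-type islets. Each of these, and each of the next pair, overlapped its neighbour in the order over the 4 libraries. Cd151, which binds the laminin receptors among the integrins, was at 11.8 and 16.6 FPKM in transgenic islets and at 11.8 and 14.4 FPKM in wild-type islets. Cd82, a metastasis suppressor gene, was at 13.5 and 12.8 FPKM in transgenic islets and at 14.9 and 11.7 FPKM in wild-type islets.

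Cd9 came ninth, below every library of Cd82, and Cd37 was all but absent. Cd37, a tetraspanin of leukocytes, had 8 and 3 reads in transgenic 1 and 2 and 4 and 8 reads in wild type 1 and 2, or 0.0881, 0.0405, 0.0476 and 0.0876 FPKM in that order of libraries. A count of 3 reads, which a count of 0 also allows, is worth 0.0330 to 0.0405 FPKM of this gene in transgenic islets and 0.0329 to 0.0357 FPKM in wild-type islets. Cd37 was below the level compared and enters none of the tests. Another leukocyte tetraspanin gene, Cd53, was at 0.868 and 0.519 FPKM in transgenic islets and at 1.35 and 0.886 FPKM in wild-type islets. Of 12 listed lymphocyte markers only 1 was high enough to compare. It was Cd79a, at 5.56 and 5.81 FPKM in transgenic islets and at 4.11 and 7.78 FPKM in wild-type islets. Cd3e, a subunit of the T cell receptor complex, was listed at 0 in every library.

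**Figure D1:**
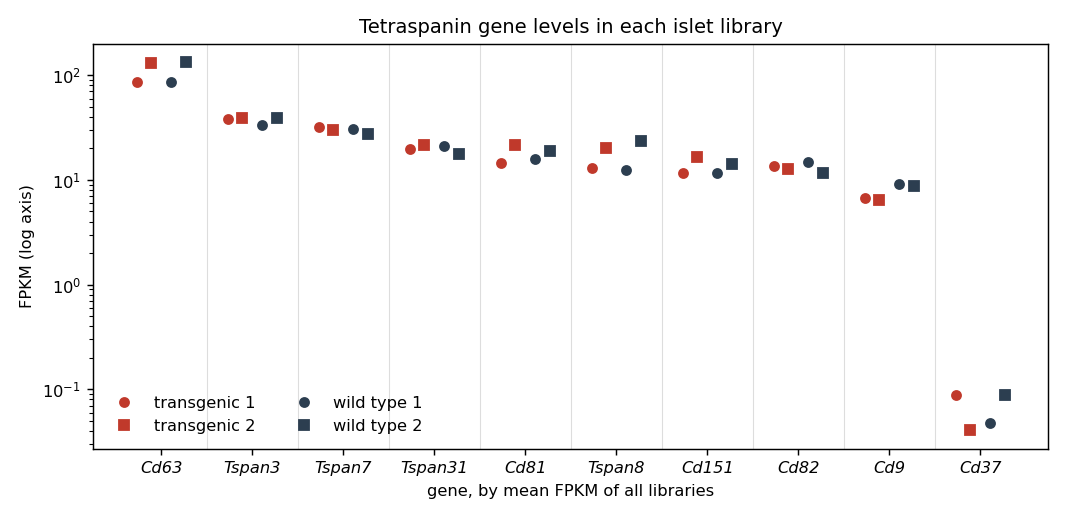
FPKM on a log axis of the 10 tetraspanin genes in each library, transgenic in red and wild type in dark blue, circles for number 1 and squares for number 2. Cd63 sits between 86.6 and 132.8 FPKM, the next 8 genes lie between 6.47 and 39.4 FPKM, and Cd37 is below 0.1 FPKM in every library.

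Among the other tetraspanin genes, Tspan13 was at a level like that of Cd63, 104 and 105 FPKM in transgenic islets and at 111 and 105 FPKM in wild-type islets. These 4 values lay between the libraries of Cd63 numbered 1 and those numbered 2. Tspan5, at 13.9 and 13.7 FPKM in transgenic islets and 13.9 and 14.0 FPKM in wild-type islets, was within the range of Cd151 and of Cd82. Tspan2 was at 10.9 and 12.1 FPKM in transgenic islets and at 10.9 and 13.0 FPKM in wild-type islets. Of the 21, 9 were below the level compared, and Upk1b, a uroplakin gene of the bladder lining, was listed at 0 in every library.

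Reads of some of the 10 genes may belong elsewhere, because the sources used here do not give the strand setting of the counting. Tspan31 (chr10:127067280-127070264) shares 641 bases at its 3' end with Cdk4, a cell cycle kinase gene on the other strand that was at 38.6 and 34.0 FPKM in transgenic islets and at 38.2 and 35.1 FPKM in wild-type islets. The level of Tspan31 is therefore uncertain. The genes on the other strand of 6 further members reached at most 0.6 FPKM. Cd63 has a processed pseudogene, Cd63-ps, which was counted at 33.8 and 56.2 FPKM in transgenic islets and at 37.2 and 49.7 FPKM in wild-type islets. It held 8.49% and 9.34% of the reads of both in transgenic 1 and 2 and 9.23% and 8.16% in wild type 1 and 2, so near-identical sequence may have split the reads of Cd63. The Cd9 pseudogene, Cd9-ps, was listed at 0 in every library.

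Setting transgenic against wild-type islets addresses which messages change in level when a transgene adds miR-29a and miR-29b to beta cells. Cd9 (ENSMUSG00000030342, chr6:125460266-125494791, minus strand), found at the cell surface and on exosomes, which acts in cell adhesion and in fusion of sperm and egg, was at 6.68 and 6.47 FPKM in transgenic 1 and 2 and at 9.10 and 8.85 FPKM in wild type 1 and 2. Both transgenic libraries were low and both wild-type libraries high, with no overlap. The means were 6.58 ± 0.146 FPKM in transgenic islets and 8.98 ± 0.177 FPKM in wild-type islets (SD, n = 2 each), a ratio of 0.733. Behind these values stood 352 and 278 reads in transgenic islets and 444 and 469 reads in wild-type islets. The exact Poisson intervals at 95%, which cover counting error only, ran from 5.73 to 7.42 FPKM over the transgenic libraries and from 8.07 to 9.99 FPKM over the wild-type libraries. On the log2(FPKM + 1) scale the difference, transgenic minus wild type, was -0.40 ± 0.12 (SE, n = 2 each), with -0.40 within number 2 and -0.40 within number 1. In whole islets, fewer cells that make a message and less of it in each cell cannot be told apart.

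The other 8 genes compared had genotype groups that overlapped. Their differences on the log2(FPKM + 1) scale ran from -0.07 for Tspan8 to 0.11 for Tspan31, with standard errors of 0.16 to 0.38. These standard errors include the difference between the numbers and are not replicate noise alone. Cd63 differed by -0.02 ± 0.32, and its values were nearly equal within a number, -0.03 in number 2 and -0.00 in number 1. Cd81 differed by 0.04 ± 0.24, with 0.19 in number 2 and -0.12 in number 1, and Cd82 by -0.00 ± 0.17, with 0.13 and -0.13. For Tspan8 the values within number 2 and number 1 were -0.22 and 0.07, and for Tspan31 they were 0.29 and -0.08. Tspan3 differed by 0.09 ± 0.16, with -0.01 and 0.18. The direction thus changed with the number in these 5 genes, Cd81, Cd82, Tspan8, Tspan31 and Tspan3. Cd151 (0.10 ± 0.22) had 0.20 in number 2 but only 0.0007 in number 1, where the genotypes were level. Tspan7 (0.08 ± 0.16) had 0.11 and 0.05. With each library left out in turn, all 8 of these genes gave both signs, over -0.51 to 0.36 for Tspan8, -0.32 to 0.28 for Cd63 and -0.24 to 0.31 for Cd81, so no direction is given for them. With a library left out the genotypes are no longer balanced over the numbers, so a difference between the numbers enters these values.

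Over all 12716 genes compared, limma called 0 genes at an adjusted p under 0.05 (0% of those tested), 0 of them among the 9 tetraspanins. At an unadjusted p under 0.05 there were 83 genes, and voom, run on reads recovered from FPKM, called 0 too, with 32. Both are well under a share of 0.05 of the genes compared, which p-values spread evenly would give. The spread in these fits includes the difference between the numbers, so 0 calls do not show that the genotypes were alike. Fits with the number as a further term are given in the closing section. Cd9 was the 1 gene of the 9 whose transgenic libraries all lay below the wild-type ones, which held for 9.03% of the genes compared, and 0 of the 9 lay wholly above, against 12.2%. Within both numbers 2 of the 9, Cd9 and Cd63, were lower in transgenic islets, against 27.4% of the genes compared. Another 2, Cd151 and Tspan7, were higher, against 33.5%, though Cd63 and Cd151 were almost level in number 1. Nothing is read from these counts because this comparison led to the choice of Cd9. The median difference was 0.04 over the 9 and 0.01 over all genes compared.

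Limma also called 0 marker genes of other cells between the genotypes. All 15 of 15 acinar genes compared, of 18 listed, were higher in transgenic islets within both numbers, with summed levels of 6749 and 1827 FPKM in transgenic 1 and 2 and 5055 and 1057 FPKM in wild type 1 and 2. Of 15 immediate early genes compared, which stress or stimulation switches on, 13 were higher within both numbers. Macrophage and dendritic cell genes, 11 of 15 compared, summed to 241 and 191 FPKM in transgenic islets and to 216 and 221 FPKM in wild-type islets, higher in transgenic islets in number 1 and lower in number 2, and endothelial genes, all 10 compared, to 131 and 101 FPKM against 106 and 85.8 FPKM. Of the 11 macrophage and dendritic cell genes, 6 were lower and 1 higher in transgenic islets within both numbers. Of the 10 endothelial genes, 0 were lower and 5 higher. Over all genes compared, 27.4% were lower and 33.5% higher within both numbers. No listed gene of these 4 groups was at 0 in every library, and their part in the values of Cd9 was not tested.

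**Figure D2:**
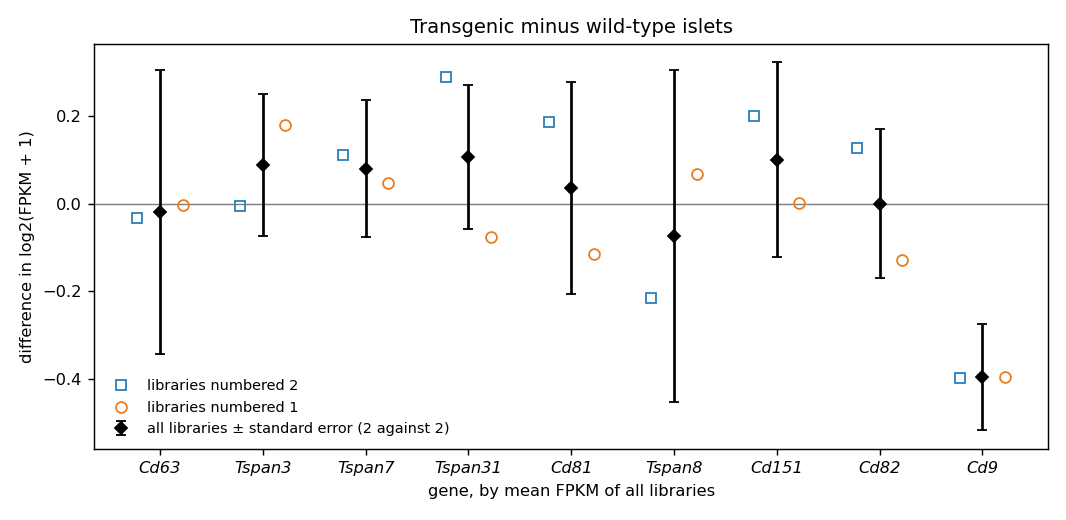
Difference in log2(FPKM + 1), transgenic minus wild type, of the 9 tetraspanin genes compared: black diamonds for all libraries with the standard error (2 against 2), blue squares within number 2 and orange circles within number 1. Cd9 lies at -0.40 in both numbers, while the squares and circles of Tspan31, Cd81, Tspan8, Cd82 and Tspan3 fall on opposite sides of 0.

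Limma called 0 of the 6 tetraspanin genes with a miR-29 seed match, and 4 of the 6 were higher in transgenic islets within both numbers, against 33.5% of the genes compared. Of these 6 genes, 5 had positive differences and 1, Tspan5, had -0.01 ± 0.13, with a median of 0.11. Tspan9, expressed in platelets and other cells, was at 4.69 and 4.19 FPKM in transgenic islets and at 3.28 and 3.71 FPKM in wild-type islets, and Tspan17 at 8.03 and 7.90 FPKM against 5.92 and 7.03 FPKM. Their differences were 0.27 ± 0.13 and 0.27 ± 0.14. Transgenic libraries lay wholly above the wild-type ones in 3 of the 12 other tetraspanins compared, these 2 and Rom1, which has no match, against 12.2% of all genes compared. The 6 other tetraspanin genes without the match ran from -0.26 ± 0.22 for Tspan12, which assists Wnt receptor signalling in the retina, to 0.31 ± 0.15 for Rom1, known from photoreceptors, with a median of -0.05. Limma called 0 of these 12 genes, and a p that misses the threshold does not show that they did not differ.

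**Figure D3:**
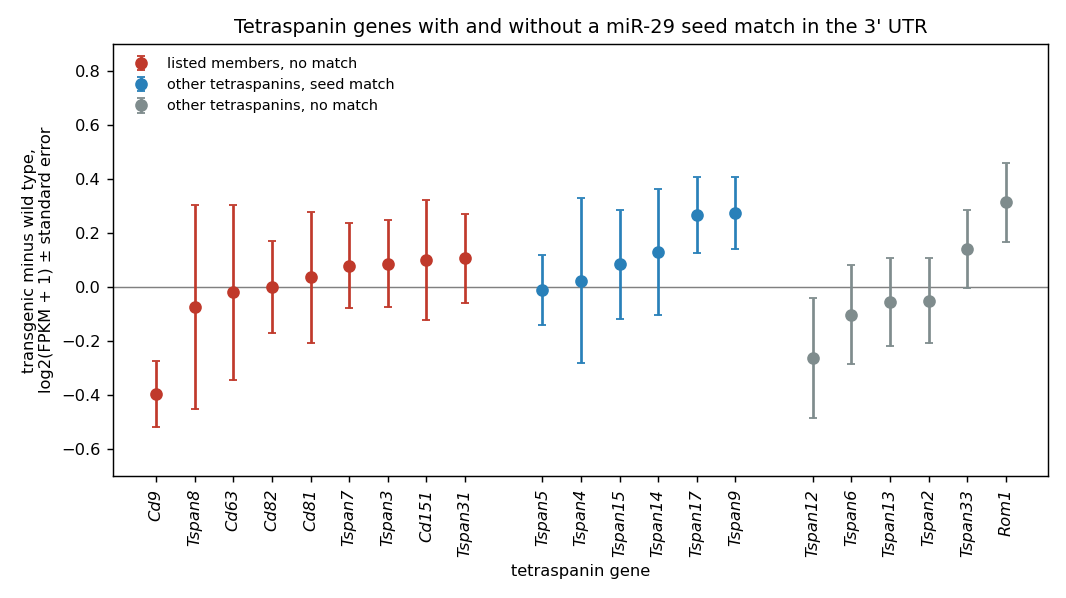
Difference in log2(FPKM + 1), transgenic minus wild type, with standard errors (2 against 2), for the 9 listed genes compared (red, no seed match), the 6 other tetraspanin genes with a match (blue) and the 6 without (grey). The blue points run from -0.01 to 0.27, and Cd9, at -0.40, is the lowest point of the plot.

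The genes whose profile over the 4 libraries was nearest to that of Cd9 were sought among 6692 genes of at least 5 FPKM on average, by Euclidean distance of log2(FPKM + 1) centred over the libraries. They were Rpl9-ps6 (distance 0.0732), a pseudogene whose reads may be those of Rpl9, Phf10 (0.125), a subunit gene of a chromatin remodelling complex, mt-Nd6 (0.148), a mitochondrially encoded subunit of complex I, Nutf2 (0.150), a nuclear transport factor gene, and the histone gene Hist1h4m (0.167), against a median distance of 0.535. Phf10 was at 4.50 and 4.58 FPKM in transgenic islets and at 5.70 and 5.85 FPKM in wild-type islets. For Tspan7 the nearest genes were Smarcal1 (0.0106), Ftsj3 (0.0203), Zc3h13 (0.0253), Arsb (0.0265) and Tial1 (0.0265), against a median of 0.322. With so few libraries many genes share a profile, and these distances describe it only.

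The libraries numbered 2 differed from those numbered 1 in Cd63 and Tspan8, in both genotypes. Cd63 (ENSMUSG00000025351, chr10:128900989-128912822) was at 129.7 and 132.8 FPKM in transgenic 2 and wild type 2, against 86.6 and 86.8 FPKM in transgenic 1 and wild type 1. It rose by 0.59 ± 0.09 on the log2(FPKM + 1) scale (limma adjusted p = 0.0135, n = 2 each), with 0.58 in transgenic and 0.61 in wild-type islets. Its pseudogene was likewise higher in number 2, at 56.2 and 49.7 FPKM against 33.8 and 37.2 FPKM in number 1. Tspan8 (ENSMUSG00000034127, chr10:115816832-115849893) was at 20.2 and 23.7 FPKM in number 2 against 13.1 and 12.5 FPKM in number 1, and rose by 0.73 ± 0.11 (limma adjusted p = 0.0123), with 0.59 in transgenic and 0.88 in wild-type islets. These calls were close to the threshold: that of Tspan8 ended without transgenic 1 (limma adjusted p = 0.0514), that of Cd63 without wild type 2 (0.0645), and both with no filter on low values (0.0641 and 0.0555).

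Limma called 2 of the 9 genes higher and 0 lower in number 2, against 10.1% and 10.6% of the 12716 genes compared (20.7% in either direction). Cd81 and Cd151 missed the threshold, with differences of 0.40 ± 0.11 (limma adjusted p = 0.0512) and 0.37 ± 0.10 (0.056), and passed it with genotype as a term (0.0483 and 0.0405), where 13.4% of the genes compared were called higher. Cd81 was higher by 0.55 in transgenic and 0.25 in wild-type islets, and Cd151 by 0.47 and 0.27. Cd82 went the other way, with -0.20 ± 0.10 overall (limma adjusted p = 0.203), and Tspan7 had -0.14 ± 0.09 (0.332). Cd9 was at -0.04 ± 0.19, with -0.04 in each genotype, which restates the evenness over the libraries for which it was chosen. Over the 9 genes 5 lay wholly above and 2 wholly below in number 2, against 34.4% and 32.4% of the genes compared.

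**Figure D4:**
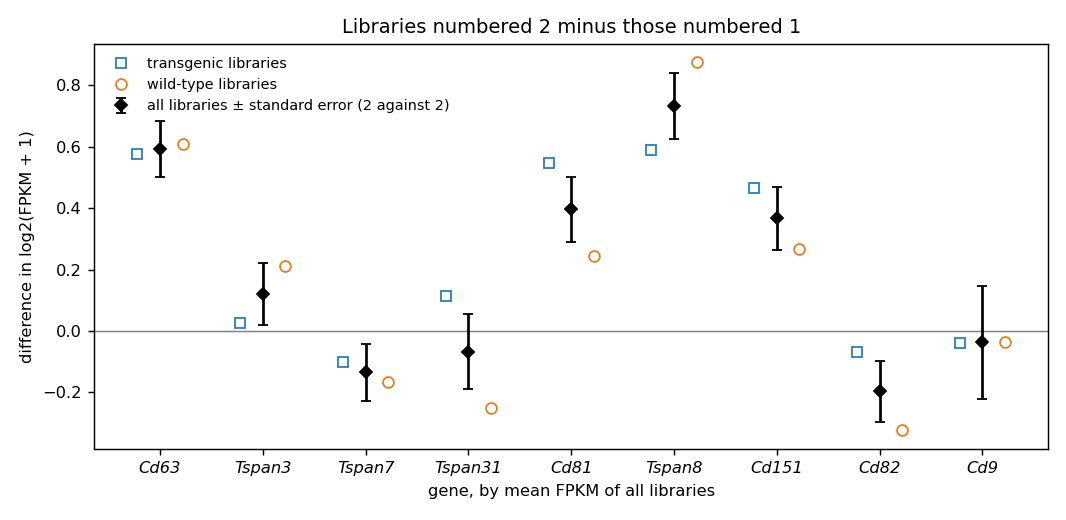
Difference in log2(FPKM + 1), libraries numbered 2 minus those numbered 1, of the 9 tetraspanin genes compared: black diamonds for all libraries with the standard error (2 against 2), blue squares for transgenic and orange circles for wild-type libraries. Cd63 and Tspan8 lie at 0.59 and 0.73, Cd81 and Cd151 near 0.4, and Cd9 at -0.04.

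Partners of tetraspanins moved in both directions between the numbers. Of 24 listed partner genes 16 were compared, and 2 rose and 3 fell in number 2 by limma, with a median difference of 0.11 against 0.01 over all genes compared. Limma called 10.1% of all genes compared higher and 10.6% lower, so nothing particular to partners is read from these counts. Adam10, the protease that the TspanC8 proteins carry, was at 9.84 and 10.4 FPKM in transgenic 2 and wild type 2 against 7.37 and 6.74 FPKM in transgenic 1 and wild type 1, a rise of 0.47 ± 0.09 (limma adjusted p = 0.0242). The integrin chain gene Itgb1 rose by 0.39 ± 0.09 (limma adjusted p = 0.0386), with 58.1 and 61.7 FPKM against 44.1 and 46.6 FPKM. Hbegf, a growth factor precursor that binds CD9, fell by 0.81 (SE 0.13, limma adjusted p = 0.0149), Pi4k2a, a lipid kinase gene, by 0.48 (0.0394), and Cd44, a hyaluronan receptor gene, by 0.41 (0.0464). Epcam, a partner in epithelia and the most abundant of the list, was at 65.4 and 67.7 FPKM against 59.4 and 55.3 FPKM and did not pass (limma adjusted p = 0.158). The other abundant partners, Ifitm3 and Ifitm2, did not pass either (0.723 and 0.117).

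Genes of endosomal sorting and exosome release, 32 of 36 listed, gave 4 higher and 1 lower in number 2 by limma, with a median of -0.03. That is a smaller share than the 20.7% called over all genes compared, so the counts show nothing particular to the list. Those that rose were the ESCRT-III subunit genes Chmp2a (0.40 ± 0.09, limma adjusted p = 0.0347) and Chmp3 (0.35 ± 0.09, 0.0405), the lysosomal membrane gene Lamp2 (0.49 ± 0.12, 0.0439) and the recycling GTPase gene Rab11a (0.34 ± 0.09, 0.0496). Pdcd6ip, which encodes the ESCRT adaptor ALIX, fell by 0.38 (limma adjusted p = 0.0463). The most abundant genes of the list were Lamp1, at 159 and 173 FPKM in number 2 against 182 and 167 FPKM in number 1, Anxa5, at 155 and 169 FPKM against 144 and 151 FPKM, and Rab7, at 96.1 and 98.0 FPKM against 108 and 117 FPKM. Limma called 0 of these 3. In the comparison of genotypes limma called 0 of the 16 partner genes and 0 of the 32 sorting genes, with medians of 0.06 and 0.00. Of the other tetraspanins, Tspan14 rose by 0.42 ± 0.10 (limma adjusted p = 0.0415) and Tspan4 fell by 0.55 (0.0259) in number 2.

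The make-up of the islet RNA moved with the number as well. Acinar markers took 0.240% and 0.137% of the reads in transgenic 2 and wild type 2 against 1.03% and 0.704% in transgenic 1 and wild type 1, and limma called 13 of the 15 compared lower in number 2. Duct markers, 7 of 10 compared, took 0.0568% and 0.0467% against 0.117% and 0.0990%, with 5 called lower. Of these 7, 6 were lower and 0 higher in both genotypes. The largest were keratin genes, Krt8 at 65.1 and 54.1 FPKM against 235 and 192 and Krt18 at 75.9 and 54.6 FPKM against 170 and 163. Krt7 changed little, at 37.5 and 33.5 FPKM against 38.1 and 37.9 FPKM. Spp1 was at 31.7 and 23.8 FPKM against 27.9 and 36.8 FPKM, higher in transgenic and lower in wild-type islets. Krt19, at 0.616 and 0.541 FPKM against 0.460 and 0.542 FPKM, was below the level compared, as were Sox9 and Cftr. The fall in this list is thus not one of all duct markers. All 15 immediate early genes compared were called lower. Markers of delta, PP and epsilon cells took 0.756% and 0.732% against 0.440% and 0.382% of the reads, and those of beta cells 32.8% and 34.2% against 19.9% and 27.6%. Without Ins2 the other 9 beta cell markers took 7.35% and 7.62% against 7.12% and 7.51%, so the difference in read share lay mostly in Ins2. Of the 10 beta cell markers, 8 were higher and 1 lower in number 2 in both genotypes. Limma called 3 of the 10 higher and 0 lower, against 10.1% and 10.6% of the genes compared. Cd63 and Tspan8 were thus higher in the libraries with fewer reads in the acinar and duct lists, and the part of these cells in their levels was not tested.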

How the data were processed

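Islet RNA of 2 transgenic and 2 wild-type libraries was sequenced. An Illumina TruSeq kit was used on total RNA, per the labels' protocols. The counter HTSeq 0.6.0 and the build GRCm38 are named, per the submitters' processing notes, while aligner, annotation release and strand setting are not given in the sources used here. FPKM values were deposited by the authors for 54532 genes with gene lengths. FPKM times length was a whole multiple of a step per library, within 0.001, for 100% of nonzero values, and the multiples are used as read numbers. Intervals and the floor of 3 reads cover counting error only.

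Genes of at least 1 FPKM in at least 2 libraries (12716) were compared on log2(FPKM + 1) by limma 3.58.1, under R 4.3.3 and with its trended eBayes, 2-sided, with genotype, or the number in the library name, as the only term. P-values were adjusted by Benjamini-Hochberg over all genes compared, with a threshold of 0.05. Fold changes on this scale understate those of low genes. With 2 libraries a group the smallest exact permutation p is 0.333, so no such test was used. As an alternative, limma's voom was applied to these reads, scaled as the deposited FPKM. Scripts were tested on simulated data.

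The members, gene lists and alternatives were chosen with earlier results of these data known. All 10 members were named, with the 4 most abundant genes of each list and genes passing the test; list genes named for passing were chosen after their values were seen. For profiles nearest to a member, the 5 nearest named genes of at least 5 FPKM were taken, with predicted gene models passed over. 3' UTRs and GC content came from GENCODE M21, matched by gene ID, and microRNAs and promoters from RefSeq.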

Additional observations from a re-analysis of the deposited data

How the results depend on the processing

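For Cd9 the difference between genotypes was negative under all 13 alternatives, from -0.45 to -0.38, and each library left out in turn gave -0.42 to -0.38. Cd9 was chosen for an even fall over these same libraries, so this steadiness restates the choice and shows nothing further. Of 117 values for the 9 genes under the alternatives, 114 moved by less than the spread between replicates, and the other 3 were values of Cd9 that went to between -0.45 and -0.44 with a pseudocount of 0.1 or on the reads. That spread is wide for the other 8 genes, and each of them gave both signs when libraries were left out in turn, which also unbalances the numbers between the genotypes. Libraries of the same number and different genotype deviated together (correlation over genes 0.775 in number 1), but the labels do not say what a number shares. With the number as a replicate block, limma called 0 genes between the genotypes, and voom on the reads with that block called 238 (204 higher and 34 lower), or 71 (56 and 15) with each library's curve on GC content removed. Of the 9 genes 1, Cd9, was among the 238 (1.87% of those tested), and 0 among the 71 (0.559%), and in that model 1 residual degree of freedom is left per gene. Nothing is read from the call of Cd9, because the genotype difference led to its choice.

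Between the numbers the count of genes called, 2630, was 274 with no filter on low values, 835 to 1822 without each library in turn, and 5545 in voom with genotype as a term. The count of the 9 genes called, 2, was 0 with no filter, 1 to 2 without each library in turn, and 4 (Cd63, Tspan8, Cd81 and Cd151) with at least 5 FPKM in 2 libraries, with scaling to the sum without Ins2, Ins1 and Iapp, in voom, and with genotype as a term in limma and in voom. The differences of Cd9 and Tspan31 between the numbers changed sign when a library was left out, with ranges of -0.24 to 0.16 and -0.21 to 0.076. With a library left out, the lone library of its group is assumed to vary like the others. The order of levels was the same under both other scalings, and 8 to 10 of the 10 places were kept without each library in turn.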

Other observations

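The promoters of the 10 genes, 250 bases before to 50 after the start in RefSeq on GRCm38.p6 with the first listed start taken, differed in base composition. Tspan7 had the highest GC content (70.3%, with 27 CpG dinucleotides) and Tspan31 the lowest (48.3%, with 11), while Cd63 had 49.3% with 6 and Tspan8, the epithelial gene, 51.7% with 5. Cd9 lay at 61.3% with 18. The median was 59.2% with 17 CpG, against 61.3% with 21 for the 8994 genes compared that had a promoter in that table. The letters TATAAA, on either strand, were in 1 of the 10 (Cd81), against 6.70% of those 8994, and a match is a description and not a site.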
